A study of Homo sapiens with 24 samples.

Results

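The 8 genes EGFR, IGF1R, IRS1, IRS2, PAK1, RELA, XIAP and KLF4 are reported targets of the microRNA miR-7 in growth factor and neuronal signalling. They were taken by symbol from a count table of 60658 genes, and all 8 were found. Their RNA levels were followed through 24 poly(A)-selected libraries of human cells labelled SH-SY5Y, a neuroblastoma line, in which the circular RNA ciRS-7 (also called CDR1as) had been targeted. There were 4 setups, each with 3 knockdown (KD) libraries and 3 libraries of a non-targeting control (NTC) of the same kind, hence 8 groups. In the agoshRNA setup, cells received a plasmid encoding an AgoshRNA, a short hairpin that is loaded into Argonaute without Dicer cleavage. In the gRNA and pre-gRNA setups, cells received a guide plasmid together with a plasmid for CasRx-GFP, a Cas13d nuclease that cuts RNA, in the KD and the NTC groups alike. The syn-gRNA setup used a guide labelled synthetic, whose delivery the labels' protocol does not describe separately. RNA was harvested 48 h after transfection in all groups. The labels give replicate numbers but do not say whether replicates were separate cultures, so p-values measure the spread between these libraries, which may be technical.

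MicroRNAs guide Argonaute proteins to messenger RNAs that pair with the microRNA's seed, and such pairing usually lowers the RNA's stability and translation. ciRS-7 carries many conserved miR-7 sites and is abundant in neurons, where it binds miR-7. The long non-coding RNA OIP5-AS1, known as Cyrano, holds a site that promotes the decay of miR-7. EGFR and IGF1R are receptor tyrosine kinases, IRS1 and IRS2 are the adaptors that carry the insulin and IGF signal inward, and PAK1 is a kinase activated by RAC and CDC42. RELA is the p65 subunit of NF-κB, XIAP is an inhibitor of caspases, and KLF4 is a zinc-finger transcription factor.

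The mature miR-7 sequence is printed first, with the seed (bases 2 to 8) in capitals, because it defines the sites that the 8 genes share. It was taken from RefSeq, which lists the same mature sequence for MIR7-1 at chr9:83969811-83969834 on the minus strand and for MIR7-3 at chr19:4770700-4770723 on the plus strand of GRCh38.p14.
hsa-miR-7-5p: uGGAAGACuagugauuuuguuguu

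The matching sites were searched in the annotated 3′ UTRs of GENCODE release 29 on GRCh38, on the transcript strand, as GTCTTCCA (an 8mer), GTCTTCC without the following A (a 7mer-m8) and TCTTCCA without the preceding G (a 7mer-A1). The longest UTRs of the 8 genes held 17 such sites. In the windows below the site is in capitals, and they show the strongest class of each gene, with both 8mers for EGFR, whose sites lie close together. They come from chr7:55206063-55206092 and chr7:55206346-55206375 (EGFR, plus strand), chr15:98963381-98963410 (IGF1R, plus), chr2:226735346-226735375 (IRS1, minus), chr13:109753979-109754008 (IRS2, minus), chr11:77322972-77323000 (PAK1, minus), chr11:65653977-65654006 (RELA, minus), chrX:123908338-123908366 (XIAP, plus) and chr9:107485668-107485696 (KLF4, minus).
EGFR site 2: acaagccacaaGTCTTCCAgaggatgcttg
EGFR site 3: ctgacttgtttGTCTTCCAttccattgttt
IGF1R site 3: tcagtatcttgGTCTTCCAgaaccctctgg
IRS1 site 1: aggaaattaaaGTCTTCCAttgcatgtatt
IRS2 site 2: tatcttgctctGTCTTCCActgtacacgct
PAK1 site 1: aaatgtttctaGTCTTCCgtgtgtcaaaa
RELA site 2: ccttatcaagtGTCTTCCAtcatggattca
XIAP site 1: tatgtctcagaTCTTCCAattaattagta
KLF4 site 1: cttttcacactGTCTTCCcgatgagggaa

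EGFR held 4 sites, of which 2 were 8mers, IGF1R held 3, and PAK1 and XIAP held 1 each. IRS1 had 2 8mers, IRS2 and RELA had an 8mer and a 7mer-m8 each, and KLF4 had 2 7mer-m8 sites. The best site was an 8mer in 5 of the 8 genes, a 7mer-m8 in PAK1 and KLF4, and a 7mer-A1 in XIAP. Among 19392 genes with an annotated 3′ UTR, the best site in the longest UTR was an 8mer in 4.146%, a 7mer-m8 in 8.973% and a 7mer-A1 in 12.768%, and 74.113% had none. Longer UTRs hold more such matches, and the members' UTRs ranged from 899 bases in KLF4 to 7088 bases in IGF1R. These matches are letters in an annotated UTR; whether the sites are used in these cells was not tested.

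**Figure D1:**
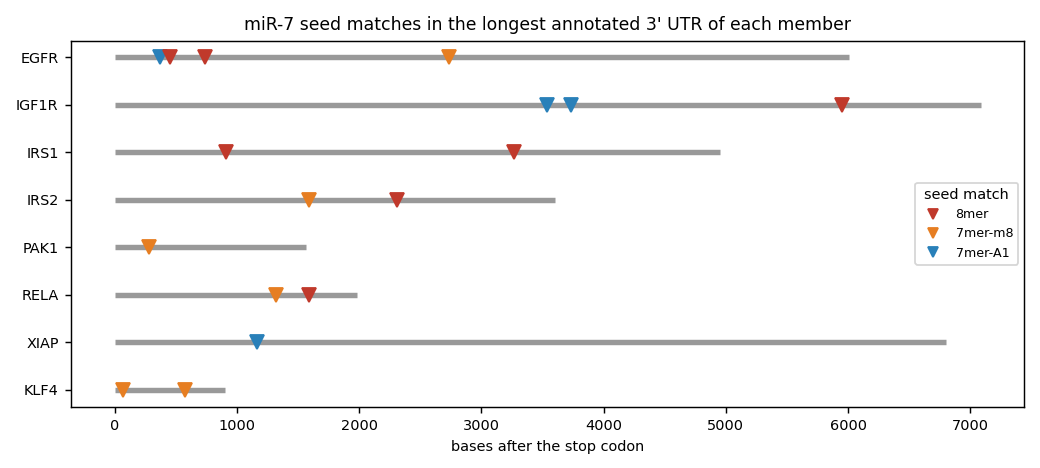
Position of the miR-7 seed matches in the longest annotated 3′ UTR of each of the 8 genes. Grey bars span the UTR from the stop codon (x axis, bases) and triangles mark sites by class; 17 sites are shown, with 4 in EGFR and 1 each in PAK1 and XIAP.

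Assigned counts per library ranged from 10994974 to 16233777. Most noradrenergic marker genes were low for the labelled line. Of 10 markers of noradrenergic neuroblastoma, the state SH-SY5Y is known for, 1 (GATA2) had a mean above 10 CPM (counts per 1000000 assigned counts) and the summed level was 30.7 to 76.3 CPM. ISL1 and GATA3 lay under that level with means of 8.54 and 8.40 CPM, and HAND2 was at 2.66, CHGA at 1.94 and PHOX2A at 0.0932. The catecholamine enzymes TH and DBH never exceeded 1 and 2 counts, and the neuronal genes STMN2 and ELAVL4 never exceeded 3 and 2. Of 7 kidney-lineage genes described in the HEK293 line, 6 were above 10 CPM, with HOXA9 at 98.2 CPM and HOXA10 at 85.1. PAX2 passed narrowly at 10.97 CPM, LHX1 was at 1.57, and the summed level was 162 to 438 CPM. Of 6 mesenchymal neuroblastoma markers 4 were above 10 CPM, with VIM at 872 CPM, NOTCH2 at 93.7, FN1 at 72.7 and YAP1 at 38.7, and the summed level was 890.1 to 1286 CPM. PRRX1 was at 1.77 CPM and CD44 at 0.0861. Every member level below refers to cells that carry the label SH-SY5Y but in which TH, DBH, STMN2 and ELAVL4 were near 0.

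The knockdown itself could not be checked closely. Across libraries 0 to 26 counts were assigned to CDR1 and 0 to 16 to CDR1-AS, the annotated genes at the ciRS-7 locus, and a circular RNA has no poly(A) tail. The average log2 fold change was −0.26 for CDR1 (SE 0.29) and −0.47 for CDR1-AS (SE 0.33), with an adjusted p of 1 for each (DESeq2). LINC00632, the host transcript, had 16 to 132 counts and an average log2 fold change of −0.04 (SE 0.12). OIP5-AS1 was at a mean of 106 CPM and its average log2 fold change was 0.00 (SE 0.08, adjusted p = 1). The target and the treatment are thus known here from the labels alone, and a loss of ciRS-7 was not shown by these libraries.

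Per kilobase of annotated transcript, RELA had the highest mean level of the 8 genes (13.4 ± 3.74 CPM per kb, SD over 24 libraries), followed by PAK1 (10.9 ± 2.01) and IGF1R (6.27 ± 1.68). XIAP (3.41 ± 1.81) came next, then IRS2 (1.14 ± 0.478), EGFR (1.12 ± 0.518) and KLF4 (0.986 ± 0.275), and IRS1 was lowest (0.276 ± 0.129). PAK1 was above IGF1R, and KLF4 above IRS1, in 24 of 24 libraries. RELA was above PAK1 in 19 of 24, IGF1R above XIAP in 23 and XIAP above IRS2 in 22. The neighbours IRS2 and EGFR (13 of 24 libraries) and EGFR and KLF4 (15 of 24) did not differ beyond their spread. IRS1 rested on 18 to 74 counts per library and KLF4 on 25 to 82, against 582 to 1742 for IGF1R, so the values of IRS1 and KLF4 carry the larger counting error.

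EGFR binds EGF and related ligands and starts RAS and PI3K signalling. The gene lies at chr7:55086714-55279321 on the plus strand of hg19, the build of the count table. With column letters A, B and C in that order, agoshRNA KD libraries had 14.4, 12.7 and 6.25 CPM and their NTC libraries 16.3, 9.73 and 9.41. The gRNA KD libraries had 13.5, 15.3 and 24.6 CPM and their NTC libraries 23.7, 15.0 and 24.3. The pre-gRNA KD libraries had 20.9, 8.82 and 25.4 CPM and their NTC libraries 17.6, 8.45 and 21.8. In the pre-gRNA setup letter B was low in both arms, while in the gRNA setup letter A was low in KD alone. The syn-gRNA KD libraries had 8.14, 8.05 and 9.37 CPM and their NTC libraries 8.59, 7.41 and 5.59, the lowest and tightest of the 4 setups. KD and NTC groups overlapped in every setup, as for most genes: in a setup 0.870% to 4.88% of tested genes lacked overlap.

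After knockdown, the EGFR log2 fold change was −0.09 (SE 0.26) with the agoshRNA, −0.15 (SE 0.23) with the gRNA, 0.15 (SE 0.16) with the pre-gRNA and 0.25 (SE 0.24) with the syn-gRNA. KD was above NTC in 8 of 12 same-letter pairs, and in 3 of 3 only with the pre-gRNA, where the differences ran from 0.06 to 0.24. No EGFR test passed: the adjusted p was 1 in 3 setups and 0.908 in the pre-gRNA setup (DESeq2, letter as block). The table's annotation has a gene on the opposite strand within EGFR with at most 21 counts; the libraries do not mark strand.

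IGF1R, the receptor of the insulin-like growth factors, lies at chr15:99192200-99507759 on the plus strand of hg19. It had 49.8 to 125.5 CPM with a median of 82.3. In the agoshRNA setup KD libraries had 110.5, 53.8 and 49.8 CPM and NTC libraries 125.5, 56.8 and 71.2, with KD lower in 3 of 3 pairs. In the gRNA setup KD libraries had 74.8, 92.2 and 106.4 CPM and NTC libraries 119.7, 93.9 and 106.7, again with KD lower in 3 of 3, though pairs B and C differed by 0.03 and less on the log2 scale. The fitted log2 fold changes were −0.23 (SE 0.17) and −0.14 (SE 0.19), with an adjusted p of 1 for each (DESeq2). With the pre-gRNA it was 0.09 (SE 0.11) and with the syn-gRNA 0.03 (SE 0.10), with KD above NTC in 2 of 3 pairs in each.

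The adaptors were low. IRS1 (chr2:227596033-227664475, minus strand, hg19) had 1.25 to 4.99 CPM, and its log2 fold changes ran from −0.30 (agoshRNA, SE 0.44) to 0.23 (pre-gRNA, SE 0.31). IRS2 (chr13:110405045-110438915, minus strand, hg19) had 3.01 to 15.95 CPM. In the gRNA setup, IRS2 was at 5.73, 7.10 and 14.9 CPM in KD and 15.9, 8.54 and 13.7 CPM in NTC libraries. The fall was thus in pairs A and B, by 1.39 and 0.25 on the log2 scale, while pair C rose by 0.12. The fitted value of −0.43 (SE 0.29, 95% interval −0.99 to 0.13) had the lowest p of the 32 member tests, 0.136, and an adjusted p of 1 (DESeq2). In the pre-gRNA setup IRS2 KD libraries had 15.95, 3.46 and 12.8 CPM and NTC libraries 13.1, 3.01 and 11.4. There KD was higher in 3 of 3 pairs, with differences of 0.28, 0.18 and 0.16 that were small beside the spread between letters, and the fitted value was 0.19 (SE 0.20). With the agoshRNA KD libraries had 11.4, 6.25 and 5.14 CPM against 13.0, 4.14 and 10.5, and with the syn-gRNA 7.61, 6.94 and 7.73 against 8.79, 7.71 and 7.89. The fitted values were −0.19 (SE 0.31) and −0.14 (SE 0.22).

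PAK1, which links RAC and CDC42 to the actin cytoskeleton, was the steadiest member. The gene lies at chr11:77032752-77185680 on the minus strand of hg19. Its level ran from 48.0 to 90.1 CPM, a 1.88-fold range over 24 libraries, against 7.72-fold for XIAP and 5.31-fold for IRS2. Its log2 fold change was −0.02 with the agoshRNA (SE 0.16), 0.07 with the gRNA (SE 0.18), 0.00 with the pre-gRNA (SE 0.11) and 0.02 with the syn-gRNA (SE 0.11). The opposite-strand gene RP11-739B23.1, which overlaps PAK1, had up to 142 counts, so a small part of the reads could belong to either.

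RELA (chr11:65421067-65430565, minus strand, hg19) forms the transactivating subunit of most NF-κB dimers. The agoshRNA KD libraries had 95.4, 36.9 and 85.5 CPM and their NTC libraries 91.8, 40.3 and 68.2. The gRNA KD libraries had 105.0, 70.5 and 56.3 CPM and their NTC libraries 87.1, 77.0 and 54.9. Letter B in the first setup and letter C in the second were low in both arms. The pre-gRNA KD libraries had 82.4, 111.6 and 52.2 CPM and their NTC libraries 102.0, 98.6 and 61.1. The syn-gRNA libraries lay closer together, at 63.8, 59.8 and 61.2 CPM in KD and 73.5, 63.0 and 59.6 in NTC. The fitted log2 fold change was 0.12 with the agoshRNA (SE 0.18), 0.16 with the gRNA (SE 0.20), −0.15 with the pre-gRNA (SE 0.12) and −0.09 with the syn-gRNA (SE 0.11).

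XIAP (chrX:122993574-123047829, plus strand, hg19), which binds and blocks caspases, varied most. The agoshRNA KD libraries had 7.87, 48.6 and 26.7 CPM and their NTC libraries 8.74, 34.9 and 34.2. The gRNA KD libraries had 11.4, 30.9 and 59.6 CPM and their NTC libraries 22.1, 27.5 and 60.8. In these setups letter A had the highest RELA and the lowest XIAP level in both arms. The pre-gRNA KD libraries had 33.9, 9.60 and 56.0 CPM and their NTC libraries 21.3, 10.5 and 50.5. The syn-gRNA libraries had 45.7, 21.0 and 26.0 CPM in KD and 42.5, 25.2 and 22.4 in NTC, and there letter A was the highest for XIAP and RELA alike. KD was higher in 6 of 12 pairs, and the fitted log2 fold change was 0.03 with the agoshRNA (SE 0.22), −0.16 with the gRNA (SE 0.22), 0.22 with the pre-gRNA (SE 0.16) and 0.02 with the syn-gRNA (SE 0.14).

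KLF4 (chr9:110247133-110252763, minus strand, hg19), a factor used in reprogramming to pluripotency, had 1.57 to 6.65 CPM with a median of 3.57. Its log2 fold change was −0.25 with the agoshRNA (SE 0.36), −0.03 with the gRNA (SE 0.36), 0.33 with the pre-gRNA (SE 0.33) and −0.05 with the syn-gRNA (SE 0.33). The pre-gRNA value was the highest of all 32 member values, and its largest pair difference, 0.76 on the log2 scale, came from pair B, where the libraries had 3.004 and 1.57 CPM.

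**Figure D2:**
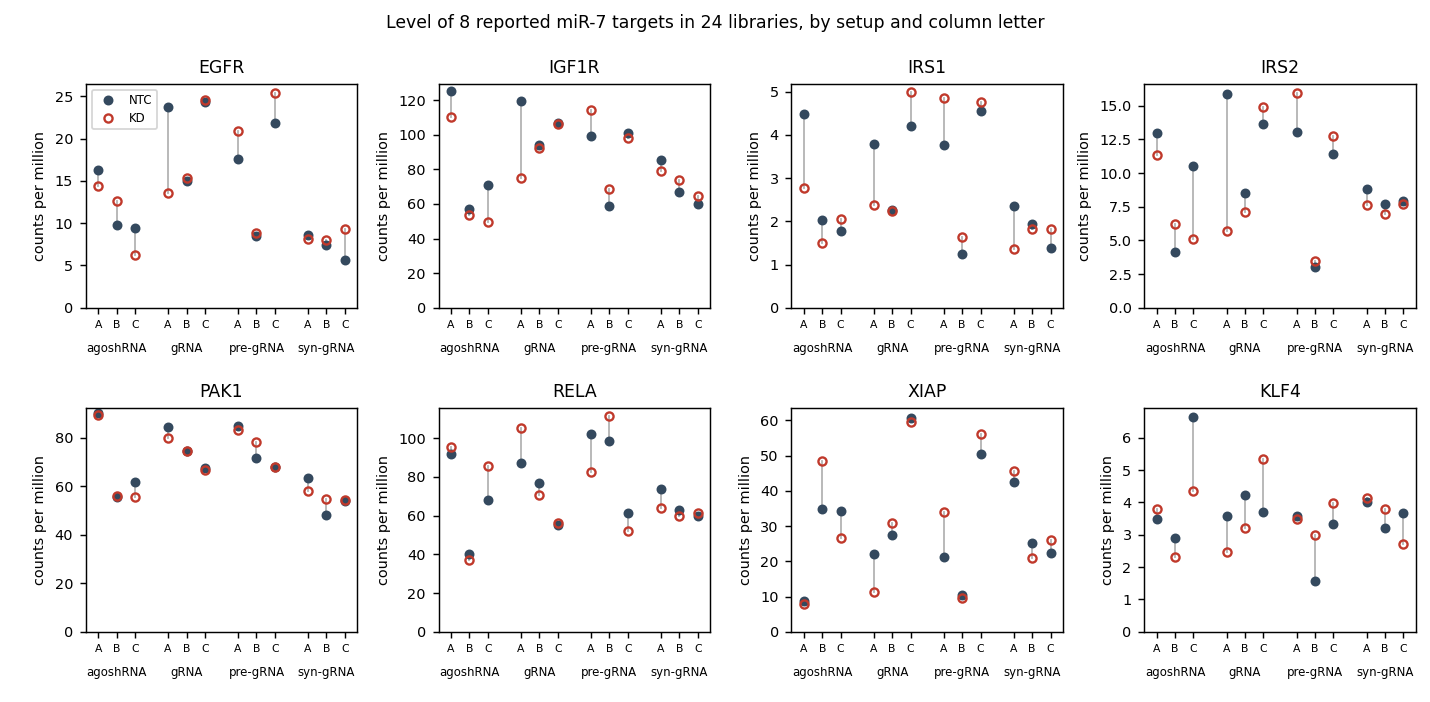
CPM (y axis, linear, from 0) of the 8 genes in each of the 24 libraries, by setup and column letter (x axis), with open red circles for KD, filled circles for NTC and grey lines joining same-letter pairs. XIAP spans 7.87 to 60.8 CPM and PAK1 48.0 to 90.1, and KD and NTC overlap in every panel, as they do for all but 0.870% to 4.88% of the genes tested in a setup.

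Taken over the 32 tests of a member in a setup, 0 passed an adjusted p of 0.05 and 0 had an unadjusted p under 0.05 (DESeq2). The lowest adjusted p was 0.843. The background was as low: genes called made up 0% of 17806 tested with the agoshRNA, 0% of 18371 with the gRNA, 0% of 18717 with the pre-gRNA and 0.0054% of 18513 with the syn-gRNA, where MALAT1 was called. Genes with an unadjusted p under 0.05 made up 0.59%, 0.615%, 5.4% and 1.3%. With the agoshRNA, gRNA and syn-gRNA these shares are smaller than evenly spread p-values would give, so the test was conservative there. The lack of members at that level therefore says little about small changes. By edgeR's quasi-likelihood test, 408, 730, 2460 and 1134 genes had an unadjusted p under 0.05. Of these 0, 3, 0 and 9 genes were called in the same order, none of them a member. Without the agoshRNA pair B 217 genes were called in that setup, and without the syn-gRNA pair C 0 were called there, again with no member among them (DESeq2). The members were above 0 in 2 of 8 cases with the agoshRNA, 2 with the gRNA, 6 with the pre-gRNA and 4 with the syn-gRNA. The members' median log2 fold change was −0.14, −0.09, 0.17 and −0.02, beside medians of 0.00, 0.02, 0.00 and 0.00 over all genes tested. In 0 of 32 cases did all KD libraries lie above or below all NTC libraries. That is little different from genes at large, since such a lack of overlap was found in 0.870% of tested genes with the agoshRNA, 2.30% with the gRNA, 1.13% with the pre-gRNA and 4.88% with the syn-gRNA. The authors' deposited tables give log2 fold changes of −0.3537 to 0.3125 for the same 32 cases, with adjusted p-values of 1.

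Fitted with 12 pairs and 1 common KD coefficient, the average log2 fold changes were small. They were 0.04 (SE 0.09) for EGFR, −0.05 (SE 0.06) for IGF1R, −0.06 (SE 0.15) for IRS1 and −0.14 (SE 0.12) for IRS2. For PAK1 the average was 0.02 (SE 0.05), for RELA 0.01 (SE 0.07), for XIAP 0.03 (SE 0.09) and for KLF4 0.00 (SE 0.13). All 8 adjusted p-values were 1, with 0% of 20172 genes called and 1.48% at an unadjusted p under 0.05 (DESeq2). The 95% intervals give the sizes that 12 pairs leave possible: −0.08 to 0.12 for PAK1, −0.18 to 0.07 for IGF1R, −0.13 to 0.16 for RELA and −0.15 to 0.22 for EGFR. The XIAP interval was −0.15 to 0.21, about as wide as that of EGFR. Intervals were wider for KLF4 (−0.25 to 0.26), IRS2 (−0.37 to 0.10) and IRS1 (−0.34 to 0.23). A change within these bounds remains possible at this depth and number of libraries. The intervals are not adjusted for the number of genes tested, and the smallest detectable change was not computed.

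**Figure D3:**
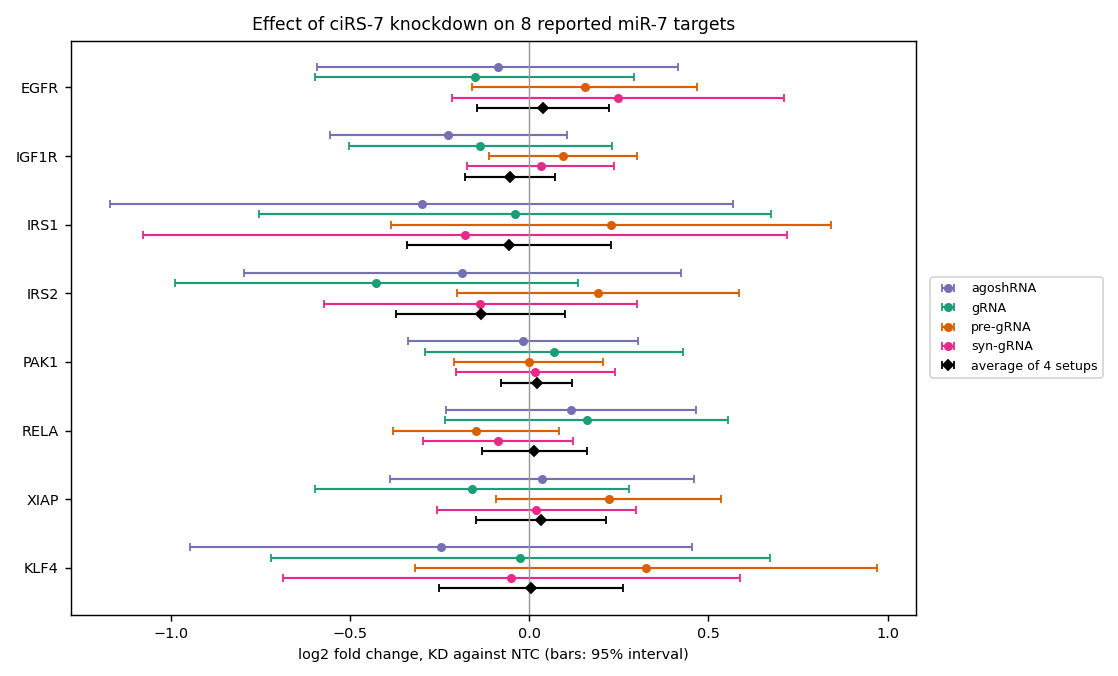
Log2 fold change of KD against NTC (x axis) for the 8 genes in each setup and for the average of the 4 setups (black diamonds), with bars for 95% intervals. Every interval includes 0, and the average intervals run from −0.08 to 0.12 for PAK1 to −0.34 to 0.23 for IRS1.

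No knockdown effect on a member was called different between setups by the test of the difference itself. Of 48 differences (8 genes, 6 pairs of setups), 0 were called and 0 had an unadjusted p under 0.05, with 0% of 20172 genes called in each of the 6 comparisons (DESeq2). The largest was IRS2, 0.61 lower on the log2 scale with the gRNA than with the pre-gRNA (95% interval −1.28 to 0.05, adjusted p = 0.528). For IGF1R the agoshRNA effect was below the pre-gRNA effect by a log2 difference of −0.31 (95% interval −0.66 to 0.03, adjusted p = 0.686). These intervals are wide, so the effects are not shown to be alike either.

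The level of EGFR differed between the control groups of the setups. It was 21.0 ± 5.22 CPM (SD, n = 3) in the gRNA NTC, 15.97 ± 6.84 in the pre-gRNA NTC, 11.8 ± 3.91 in the agoshRNA NTC and 7.20 ± 1.51 in the syn-gRNA NTC. The gRNA NTC libraries (15.0 to 24.3 CPM) lay wholly above the syn-gRNA NTC libraries (5.59 to 8.59 CPM), and the log2 difference was 1.397 (SE 0.35, adjusted p = 0.0129, DESeq2). This was 1 call among 48 tests of a member between NTC groups, where 1.32% of genes were called in that comparison. The call was lost by edgeR (adjusted p = 0.105) and when any of 4 libraries was left out: gRNA NTC A (adjusted p = 0.157), gRNA NTC C (0.155), syn-gRNA NTC B (0.118) or syn-gRNA NTC C (0.251), with log2 differences between 1.25 and 1.45. The KD groups of the same setups differed by 0.99 (SE 0.35, adjusted p = 0.125), a comparison added after the data were seen.

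EGFR was also higher in the pre-gRNA than in the syn-gRNA NTC by 1.07 (SE 0.35), which missed the threshold (adjusted p = 0.0594, DESeq2), while offsets for GC content gave 1.08 with an adjusted p of 0.00627. Against the agoshRNA NTC the difference from the syn-gRNA NTC was 0.68 (SE 0.35, adjusted p = 0.413). Genes called made up 3.25% in the pre-gRNA and 1.84% in the agoshRNA comparison with the syn-gRNA NTC. Among the plasmid setups the shares were 0.0496% (agoshRNA against gRNA), 0.0347% (agoshRNA against pre-gRNA) and 0% (gRNA against pre-gRNA), with no member called. The insulin receptor INSR, from the list of EGF, insulin and IGF signalling, was higher than in the syn-gRNA NTC (17.2 ± 5.83 CPM) in the agoshRNA (41.7 ± 9.28), gRNA (46.4 ± 8.46) and pre-gRNA NTC (34.5 ± 11.97). Its log2 differences were 1.263, 1.296 and 0.948, with adjusted p-values of 0.0011, 0.00107 and 0.0219 (DESeq2). By edgeR 0 genes were called between the gRNA and syn-gRNA NTC, so the INSR call was lost there. The comparisons with the syn-gRNA NTC share its libraries. Setup, way of delivery and any batch cannot be told apart here.

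The other 7 members were not called between NTC groups. IGF1R was 106.8 ± 12.9 CPM in the gRNA and 70.9 ± 13.2 in the syn-gRNA NTC, a log2 difference of 0.45 (SE 0.26, adjusted p = 0.524). PAK1 was 75.0 ± 8.85 CPM in the pre-gRNA and 55.1 ± 7.85 in the syn-gRNA NTC, a log2 difference of 0.43 (SE 0.21, adjusted p = 0.258, DESeq2). For XIAP the SE of these differences reached 0.69, since its level varied more between letters than between setups.

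The spread between letters went with the base composition of the libraries. The mean GC content of the genes, weighted by their counts, ran from 47.3% to 52.3% over the 24 libraries. Variation among all genes went with it too: the first principal component of 13835 genes held 66.7% of the variance and correlated with it at r = 0.99, and 48.6% of these genes had an absolute r above 0.8. XIAP, whose transcript GC content of 39.0% is the lowest of the members, fell as library GC rose (Pearson's r = −0.91, Spearman's rho = −0.86, n = 24). RELA, at 57.1% GC, rose (r = 0.91, rho = 0.94, n = 24). Without the 2 libraries farthest from the median GC, r was −0.88 for XIAP and 0.90 for RELA. The 24 libraries share letters, depth and base composition, so these are descriptions with no p. PAK1 rose less closely (r = 0.65, rho = 0.62).

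The other members showed no close relation to library GC across the 24 libraries. For EGFR r was −0.10 (rho −0.15), for IGF1R 0.10 (rho 0.14), for IRS1 −0.08 (rho −0.06), for IRS2 −0.25 (rho −0.15) and for KLF4 −0.27 (rho −0.14). IRS2 has the highest transcript GC content of the members, 58.7%, and still did not rise with library GC. Within same-letter pairs the picture was different. Correlations of pair differences were computed for the members only, so how common such values are among all genes is not known. The KD minus NTC difference of EGFR went down as the difference in library GC went up (r = −0.87, rho = −0.90, n = 12 pairs; r = −0.68 without the 2 farthest pairs). The same held for XIAP (r = −0.92, and −0.85 without the 2 farthest), and with the opposite sign for RELA (r = 0.81, and 0.61). For IRS2 r was −0.81 and for IGF1R −0.77. Without the 2 farthest pairs these were −0.46 and −0.32, so both rest largely on those pairs. The pair differences of IRS1 (r = −0.40; −0.39 without the 2 farthest), PAK1 (r = −0.22; 0.30) and KLF4 (r = −0.15; 0.49) were less closely related to library GC. With GC offsets in the fit, the 32 member values ran from −0.56 to 0.43 with a lowest p of 0.0632, and 0 were called (DESeq2).

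**Figure D4:**
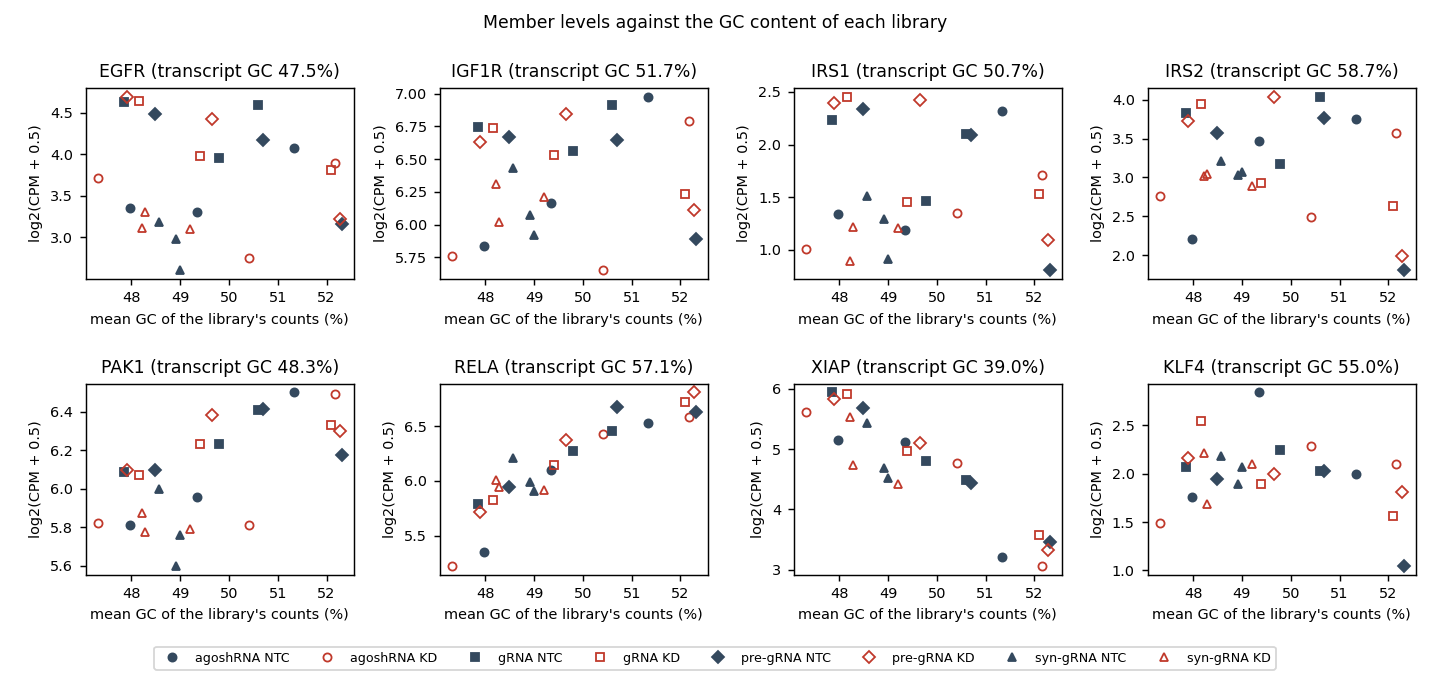
Level of each gene as log2(CPM + 0.5) (y axis) against the mean GC content of the library's counts in percent (x axis), for 24 libraries, with markers by setup, filled for NTC and open for KD. XIAP falls and RELA rises from 47.3% to 52.3%, while EGFR, IRS1, IRS2 and KLF4 show no steady trend.

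Among themselves, the receptors and adaptors had similar profiles over the 24 libraries. On log2(CPM + 0.5), r was 0.88 between EGFR and IRS1, 0.82 between IGF1R and IRS1 and 0.82 between IGF1R and IRS2. It was 0.81 between EGFR and IGF1R, 0.80 between IRS1 and IRS2 and 0.71 between EGFR and IRS2. PAK1 had an r of 0.72 to IGF1R, 0.68 to RELA, 0.61 to EGFR, 0.54 to IRS1 and 0.35 to IRS2. How common such values are among all pairs of genes was not computed. RELA and XIAP were opposed (r = −0.74, rho = −0.74). KLF4 stood apart, with a highest r of 0.56, to IRS2. All of these share the same libraries and their differences in setup and base composition.

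Among genes averaging 50 counts or more, the 3 most like each member by Pearson's r were as follows. For EGFR they were LTBP1 (0.96), VAPB (0.95) and SNAI2 (0.94). For IGF1R they were EIF4EBP2, BCOR and LRP8 (0.96 to 0.95), and for IRS2 they were LRCH3, SIN3A and RIPK1 (all 0.95). EIF4EBP2 encodes a repressor of cap-dependent translation and LRP8 a receptor of reelin. For IRS1 the closest were ZNF543 (0.92), AP001469.9 (0.92) and RP11-706O15.5 (0.90). For PAK1 they were SF3B3 (0.98), a splicing factor subunit, PREP (0.97) and EPB41L1 (0.96). RELA was closest to CAMSAP3, GRINA and PKMYT1 (0.98 to 0.97), whose transcripts are 63.6% to 67.2% GC. XIAP was closest to RP11-343N15.5, PDZD8 and MIA3 (all 0.98), and PDZD8 and MIA3 are 40.2% and 41.1% GC. For KLF4 the nearest were C8orf76 (0.82), FN1 (0.79) and TPBG (0.77), a looser likeness than for the other members.

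Around the members, no gene of the signalling lists was called after knockdown in a setup or on average (DESeq2). Of 14 further reported miR-7 targets, 0 of 14 tested were called. Their median average log2 fold change was −0.03, beside 0.01 for all genes, and 5 were above 0. In this list PARP1, a DNA repair enzyme at 1169 CPM, had an average of −0.01 (SE 0.04) and YY1 an average of −0.10 (SE 0.10). In the list of EGF, insulin and IGF signalling 31 of 36 genes were tested and 18 were above 0, with a median of 0.02. The phosphatase PTPN11 had an average of 0.03 (SE 0.07), the adaptor IRS4, at 182 CPM, 0.06 (SE 0.08), and the PI3K regulatory subunit PIK3R1 0.14 (SE 0.09).

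The 12 tested genes of RAC, CDC42 and PAK signalling had a median of 0.00, with 6 above 0. CFL1, the actin-severing cofilin that lies downstream of PAK1, had an average of 0.06 (SE 0.09), RAC1 0.01 (SE 0.04) and the RAC exchange factor TIAM1 −0.14 (SE 0.10). Of the NF-κB list 12 of 14 were tested and 6 were above 0. NFKB2 had an average of 0.06 (SE 0.08), the kinase CHUK 0.00 (SE 0.07) and NFKB1 −0.13 (SE 0.09). In the list of IAP proteins, antagonists and caspases 10 of 12 were tested, with BIRC5 at 0.02 (SE 0.08), cytochrome c (CYCS) at −0.01 (SE 0.07) and BIRC6 at 0.12 (SE 0.09). Its member DIABLO, an antagonist of XIAP, was higher in the pre-gRNA NTC (79.5 ± 18.2 CPM) than in the syn-gRNA NTC (39.3 ± 7.13 CPM), a log2 difference of 1.04 (SE 0.30, adjusted p = 0.0257, DESeq2).

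Of 14 KLF and SP factors 12 were above 0 on average, with a median of 0.05 and 0 called, beside 55.1% of all genes above 0. KLF2, an endothelial and immune regulator at 2.30 CPM, had an average of 0.44 (SE 0.16, adjusted p = 1, DESeq2), while SP1 was at −0.15 (SE 0.11) and KLF6 at −0.14 (SE 0.09). In the list of miR-7 and its sponge, HNRNPK, a gene whose intron carries MIR7-1, had an average of −0.02 (SE 0.06). MIR7-3HG, the host of MIR7-3, was at 0.353 CPM with an average of 0.58 (SE 0.39, adjusted p = 1). The mature miR-7 itself was not measured by these libraries.

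Genes that carry the same sites had median changes close to that of genes without one. On average over the setups the median log2 fold change was −0.01 for 647 tested genes with an 8mer, 0.00 for 1428 with a 7mer-m8, 0.00 for 1917 with a 7mer-A1 and 0.01 for 10004 with none. The shares above 0 were 47.9%, 52.5%, 50.9% and 55.3%, beside 55.1% of all genes tested. In single setups the order turned. With the agoshRNA 41.7% of 8mer genes and 51.7% of genes without a site were above 0, and with the gRNA 43.6% and 56.1%. With the pre-gRNA the shares were 57.0% and 45.8%, and with the syn-gRNA 52.8% and 47.1%. The 7mer-A1 shares turned as those of the 8mers did, at 42.1%, 45.6%, 58.0% and 51.5% in the same order of setups. The 7mer-m8 shares hardly moved, at 50.7%, 51.3%, 51.2% and 49.2%, so the turn did not follow the strength of the site class. Mean library GC was higher in KD than in NTC with the agoshRNA (49.964% and 49.553%) and gRNA (49.885% and 49.412%). It was lower in KD than in NTC with the pre-gRNA (49.94% and 50.495%) and syn-gRNA (48.57% and 48.831%). The pairs did not all go the way of these means. Pair B went the other way with the agoshRNA (47.32% in KD, 47.97% in NTC), gRNA (49.40% and 49.79%) and syn-gRNA (49.21% and 48.92%). No gene of any class was called in the 4 setups or on average (DESeq2), other than MALAT1, which has no annotated UTR here. These are descriptions. A smaller share above 0 is the direction of lower RNA in the KD libraries. The classes were not matched for GC content or UTR length. Whether miR-7 or base composition accounts for the turn between setups was not tested.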

How the data were processed

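The authors' deposited tables hold raw counts per gene for 24 libraries. Per the submitters' processing notes the tools were Trim Galore, STAR 2.7.3a, featureCounts and DESeq2 with build hg19, and per the labels' protocols the libraries were poly(A)-selected, not stranded and sequenced as paired reads of 100 bases. The 4 tables hold identical counts; 24 further per-sample columns in each table were not used. The authors' log2 fold changes and p-values, deposited in the same tables, are given only where named.

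Members were found by symbol. The members and all gene lists were chosen with earlier results of these data known. Each setup's 6 libraries were fitted with DESeq2 1.42.0 (R 4.3.3; Wald test; at least 10 counts in at least 3 libraries; Benjamini-Hochberg over all genes tested; called at adjusted p under 0.05), with the column letter as a block. Letters come from column names and are not tied to the labels' replicate numbers. They were kept as a pairing because same-letter libraries deviated together in 12 of 12 pairs (r = 0.36 to 0.97 over 13835 genes). The average KD effect, its differences between setups and the NTC groups were fitted on 24 libraries, the last without a block. Alternatives were edgeR 4.0.16, TMM factors, no block, other count filters, GC offsets, and leaving out pairs, libraries or setups. The fit of a single setup with the letter block was tried, by DESeq2 and edgeR, on counts simulated from the syn-gRNA libraries. The other fits were not tried on simulated data. CPM is the count per 1000000 assigned counts; correlations used log2(CPM + 0.5).

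Besides the members, genes were named by rule: list members called in any comparison, per list the 2 with the highest mean CPM and the 1 with the smallest p for the average KD effect, the 3 genes with the highest Pearson's r to each member, and the genes at the ciRS-7 locus. A gene that the rule names in the list of further reported miR-7 targets is not reported here. GC content and UTRs came from GENCODE 29, which matched 93.2% of gene identifiers; its GRCh38 coordinates are used for the sites only. Intervals cover 95%.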

Additional observations from a re-analysis of the deposited data

How the results depend on the processing

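The limits of these data include the 3 libraries per group and the low counts of IRS1 and KLF4. They also include the spread that went with library GC content and the low noradrenergic markers for the labelled line. In addition, a loss of ciRS-7 was not shown and mature miR-7 was not measured. The letter block lowered the median SE over all genes from 0.533 to 0.231 with the agoshRNA and from 0.207 to 0.096 for the average KD effect. It went from 0.433 to 0.239 with the gRNA and from 0.495 to 0.172 with the pre-gRNA, but only from 0.205 to 0.178 with the syn-gRNA. No member was called after knockdown in any of 483 alternative values, whose lowest adjusted p was 0.168. Because the values lie near 0, 48 of them, in 22 of 40 results, changed sign. Without the replicate block (no pairing by letter), the signs turned for PAK1 with the pre-gRNA (0.0011) and KLF4 with the gRNA (0.015), the syn-gRNA count of called genes went from 1 to 0, and no other KD count or member call changed.

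For PAK1 with the pre-gRNA, edgeR gave 0.0032, TMM factors 0.0032 and a mean of at least 50 counts 0.012. GC offsets turned EGFR (0.023) and PAK1 (0.071) with the agoshRNA, XIAP with the syn-gRNA (−0.035), and the averages of RELA (−0.0049) and KLF4 (−0.0099). Leaving out the syn-gRNA setup turned the average of EGFR (−0.029), leaving out the agoshRNA setup those of IRS1 (0.023) and RELA (−0.023), leaving out the gRNA setup that of RELA (−0.039), and leaving out the pre-gRNA setup those of XIAP (−0.023) and KLF4 (−0.093).

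Leaving out each pair in turn, log2 fold changes with the agoshRNA ran from −0.345 to 0.115 for EGFR, −0.567 to 0.201 for IRS2, −0.052 to 0.020 for PAK1, −0.017 to 0.212 for RELA and −0.240 to 0.205 for XIAP. With the gRNA they ran from −0.266 to 0.054 for EGFR, −0.215 to 0.015 for IGF1R, −0.208 to 0.151 for IRS1, −0.015 to 0.281 for RELA, −0.352 to 0.094 for XIAP and −0.330 to 0.135 for KLF4, and each of these turned without pair A. With the pre-gRNA PAK1 ran from −0.022 to 0.037. With the syn-gRNA they ran from −0.012 to 0.090 for IGF1R, −0.438 to 0.115 for IRS1, −0.059 to 0.074 for PAK1, −0.060 to 0.160 for XIAP and −0.185 to 0.144 for KLF4. Averages ran from −0.015 to 0.095 for EGFR, −0.105 to 0.0075 for IRS1, −0.035 to 0.047 for RELA, −0.023 to 0.096 for XIAP and −0.055 to 0.057 for KLF4. The cause was not tested for any of these turns.

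Counts of called genes moved by over 1.5 times as follows, while no member was among the KD calls. By edgeR with the block 3 genes were called with the gRNA and 9 with the syn-gRNA, against 0 and 1. Fitting the syn-gRNA libraries with all 24 gave 0. Leaving out pairs gave 0 to 217 with the agoshRNA, the 217 without pair B, and 0 to 1 with the syn-gRNA, the 0 without pair C. Between NTC groups, agoshRNA against gRNA called 10 genes, 3 by edgeR, 5 with a mean of at least 50 counts, 21 with GC offsets and 4 to 8 with a library left out. The comparison of agoshRNA with pre-gRNA called 7, 2 by edgeR, 4 with a mean of at least 50 counts, 30 with GC offsets, 4 in the 6 NTC libraries alone and 3 to 12 with a library left out.

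Against the syn-gRNA NTC, the agoshRNA NTC called 371 genes, 16 by edgeR, 238 with a mean of at least 50 counts, 1428 with GC offsets, 634 between the KD groups instead (added after the data were seen) and 38 to 487 with a library left out. The gRNA NTC called 266, 0 by edgeR (2214 at an unadjusted p under 0.05), 153, 1144, 1018 in the 6 NTC libraries alone and 18 to 413. The pre-gRNA NTC called 656, 149 by edgeR, 383, 1725, 1319 in the 6 NTC libraries alone and 104 to 670. EGFR, called in the gRNA comparison, had log2 differences of 1.25 to 1.56 over the libraries left out, and its adjusted p over all alternatives ran from 0.00028 to 0.251. In the pre-gRNA comparison EGFR passed with GC offsets, in the 6 NTC libraries alone (adjusted p = 0.0407) and without pre-gRNA NTC B (adjusted p = 0.0408).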
